A study of Rattus norvegicus with 12 samples.

Results

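Myoglobin (Mb, ENSRNOG00000004583) is described here across 12 RNA libraries of mitochondria purified from rat skeletal muscle. The gene was chosen by its name in the deposited count table, where it is 1 of 30560 genes. The same choice also named parvalbumin (Pvalb), the calcium buffer of fast fibres, which was not analysed here.

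All samples came from 1 wild-type male Wistar Kyoto rat aged 14 weeks. Its hindlimb muscle, which the series design calls gastrocnemius, was homogenised and pooled, and separate aliquots gave 4 groups of 3 libraries. In mitoplast_RNase, bead-captured organelles were stripped of their outer membrane, which leaves mitoplasts, and treated with RNase A, an enzyme that cuts accessible single-stranded RNA. In IP_RNase_ProK, mitochondria captured on magnetic beads received RNase A and proteinase K, a protease that digests exposed proteins. In IP_RNase, captured mitochondria received RNase A alone. In crude_RNase, mitochondria obtained by centrifugation at different speeds received RNase A. RNase A was therefore common to all 4 groups, and no untreated mitochondria or whole muscle were analysed here. The design compares these ways of purifying mitochondria for RNA profiling.

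Myoglobin is a haem protein of the cytosol of muscle fibres that binds oxygen, stores it and eases its diffusion towards mitochondria. It is a globin, related to haemoglobin, and is most abundant in slow and fast oxidative fibres. Its mRNA is transcribed in the nucleus and translated on cytosolic ribosomes, outside the organelle.

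Libraries held 3325430 to 4563254 counts in the 3 captured groups and 6583452 to 7123045 counts in crude_RNase. The 13 mRNAs of the mitochondrial chromosome took 1.51% to 1.89% of the counts in mitoplast_RNase, 1.49% to 2.07% in IP_RNase_ProK, 2.56% to 5.59% in IP_RNase and 22.9% to 28.8% in crude_RNase. Olfactory receptor genes, whose products serve smell in the nose, were also counted, and between 98.9% and 99.4% of the 1077 olfactory receptor genes had at least 1 count in each library. Captured libraries were made from 40 ng of RNA and crude ones from 6.3 ng, so isolation method and RNA input cannot be told apart in any comparison with crude_RNase. The 12 libraries are aliquots of 1 homogenate, so each p-value below reflects the spread among aliquots, which may be technical, and not among animals. Each of 8 muscle fibre markers (Acta1, Ckm, Tnnc2, Mylpf, Myh4, Tnnt3, Des and Ttn) had at least 51 counts in every library. That does not show muscle identity, since each endothelial marker had at least 183 counts and each satellite cell marker at least 52. Ttn, titin, had 9936, 52393 and 11829 counts in crude_RNase 1, 2 and 3.

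Mb was counted in every library. It was about 3-fold lower in bead-captured mitochondria and mitoplasts than in crude mitochondria when libraries were scaled to each other on the bulk of genes, but higher in them when scaled on mitochondrial mRNAs. The raw counts were 254, 277 and 266 in mitoplast_RNase, 290, 238 and 227 in IP_RNase_ProK, 237, 226 and 240 in IP_RNase, and 683, 653 and 587 in crude_RNase. Every captured library held fewer Mb counts than any crude one. IP_RNase_ProK overlapped both other captured groups, and the mitoplast libraries were all above the IP_RNase ones. Captured libraries were also shallower. As CPM, counts scaled to 1000000 per library, Mb stood at 63.9, 65.8 and 70.8 in mitoplast_RNase, at 63.6, 64.2 and 58.9 in IP_RNase_ProK, at 65.8, 68.0 and 61.4 in IP_RNase, and at 104, 91.7 and 86.8 in crude_RNase. The captured libraries remained below the crude ones on that scale, by a smaller margin.

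The scale used from here on is CPM of a library size corrected with TMM, a method that centres most genes on no change. On it Mb reached 53.1, 54.4 and 58.3 CPM in mitoplast_RNase. It reached 51.9, 52.8 and 48.5 CPM in IP_RNase_ProK and 55.3, 56.2 and 55.0 CPM in IP_RNase. In crude_RNase it reached 153, 175 and 165 CPM. The 9 captured libraries thus lay within a narrow band, far below the 3 crude ones.

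**Figure D1:**
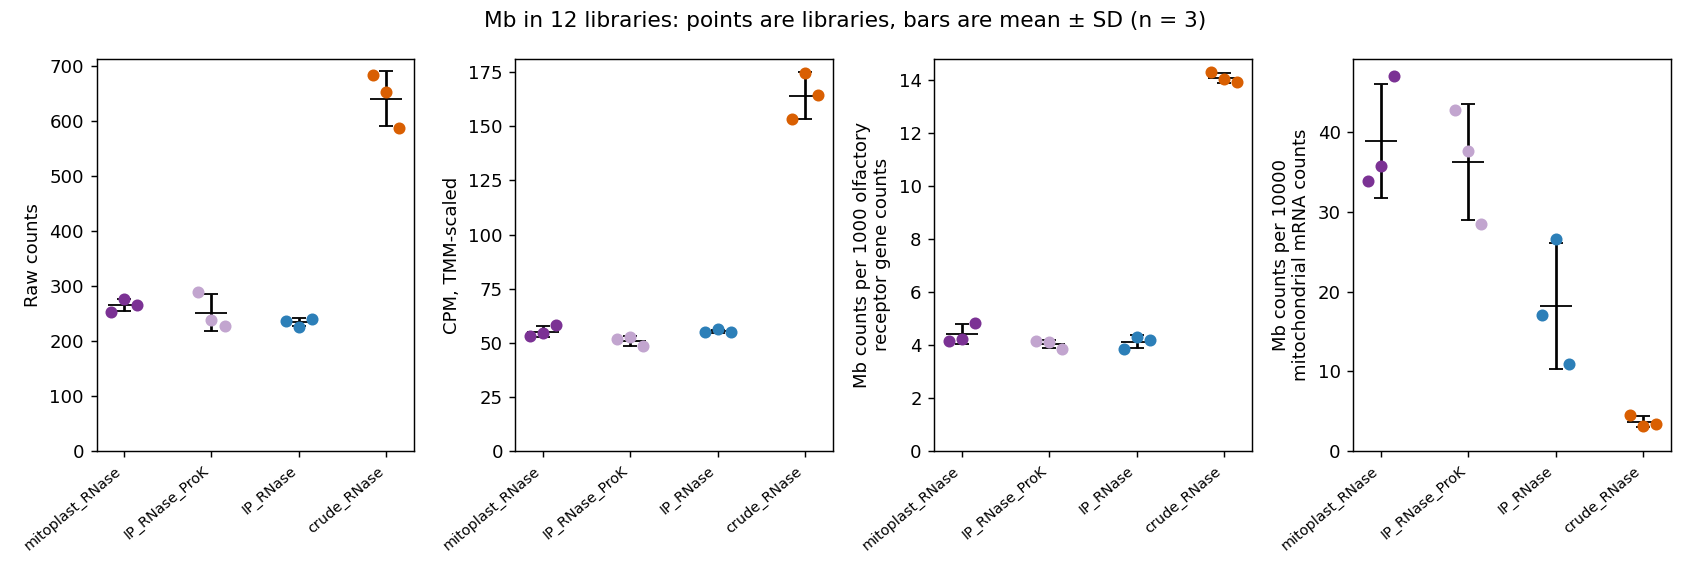
Mb in each of the 12 libraries by preparation, as raw counts, TMM-scaled CPM, counts per 1000 olfactory receptor gene counts and counts per 10000 mitochondrial mRNA counts; points are libraries and bars are mean ± SD (n = 3). On the first 3 scales the captured groups lie together below crude_RNase, at 48.5 to 58.3 CPM against 153 to 175, and on the last scale crude_RNase is the lowest group.

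The first question was how capture on beads differs from centrifugation. Mb fell to 55.5 ± 0.667 CPM in IP_RNase, against 164 ± 10.8 CPM in crude_RNase (SD over 3 libraries each). The log2 fold change was -1.56 ± 0.0814 (SE; 95% interval -1.73 to -1.40; adjusted p = 9.47e-23, edgeR quasi-likelihood test). All 3 captured libraries were below all 3 crude ones, a 2.95-fold difference. Among 26483 genes tested, 6.36% were called in either direction and 1349 (5.09%) were called lower, and Mb had the 155th lowest fold change of all.

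Proteinase K-treated mitochondria and mitoplasts gave the same direction against crude mitochondria. Mb averaged 51.1 ± 2.27 CPM in IP_RNase_ProK and 164 ± 10.8 CPM in crude_RNase, with a fold change of -1.68 ± 0.0807 on the log2 scale (SE; adjusted p = 2.08e-24 by edgeR), in a comparison where 6.49% of genes were called and 5.04% were called lower. It averaged 55.2 ± 2.69 CPM in mitoplast_RNase and 164 ± 10.8 CPM in crude_RNase, with a fold change of -1.57 ± 0.0800 on the log2 scale (SE; adjusted p = 3.13e-23 by edgeR), where 5.54% were called and 4.54% were called lower. No captured library of either group reached the lowest crude library. These 3 comparisons share the crude libraries and are not independent of each other.

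The next question was whether Mb differed after a protease, or removal of the outer membrane, within the captured libraries. No change in Mb passed the test. Nearly all olfactory receptor genes also had counts in these libraries. Whether counts of that kind limit Mb here, or its fold changes against crude_RNase, was not tested. Mb averaged 51.1 ± 2.27 CPM in IP_RNase_ProK and 55.5 ± 0.667 CPM in IP_RNase, a log2 difference of -0.12 ± 0.0901 (SE; 95% interval -0.30 to 0.06; edgeR adjusted p = 0.739). All 3 IP_RNase_ProK libraries were below the 3 IP_RNase ones, but the interval covers no change and reaches a level 0.812 times that of IP_RNase. In that comparison 0.14% of all genes were called in either direction.

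Mitoplasts stood at 55.2 ± 2.69 CPM and IP_RNase at 55.5 ± 0.667 CPM, with overlapping libraries. The log2 difference was -0.01 ± 0.0894 (95% interval -0.19 to 0.17; edgeR adjusted p = 0.992), in a comparison where 0.155% of genes were called. The interval runs from 0.879 to 1.13 times the IP_RNase level. Mitoplasts stood at 55.2 ± 2.69 CPM and IP_RNase_ProK at 51.1 ± 2.27 CPM, a log2 difference of 0.11 ± 0.0886 (95% interval -0.07 to 0.29; edgeR adjusted p = 1.0), although the libraries of the groups did not overlap. In that comparison edgeR called 0 genes (0%), with 741 at an unadjusted p under 0.05, and DESeq2 also called 0. In the order of means, IP_RNase, mitoplast_RNase and IP_RNase_ProK did not differ by the test from one another, and crude_RNase was above each.

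The direction of the Mb difference depended on what the libraries were scaled to. Mb counts per 10000 counts of the 13 mitochondrial mRNAs were 33.9, 35.7 and 47.0 in mitoplast_RNase, 42.7, 37.6 and 28.4 in IP_RNase_ProK, 17.1, 26.6 and 10.99 in IP_RNase, and 4.53, 3.18 and 3.44 in crude_RNase. On this scale every captured library was above every crude one, and both further treated groups were above IP_RNase. Scaled on these mRNAs, the Mb log2 fold change was 2.28 ± 0.372 (SE) for IP_RNase against crude_RNase, 3.29 ± 0.386 for IP_RNase_ProK and 3.39 ± 0.388 for mitoplast_RNase, each past the edgeR threshold with an adjusted p of at most 8.99e-10. Against IP_RNase it was 1.00 ± 0.363 for IP_RNase_ProK (edgeR adjusted p = 0.00804) and 1.10 ± 0.363 for mitoplast_RNase (adjusted p = 0.00502). The median over all genes tested was 1.13 and 1.12 there, and 24889 and 24728 of 26483 genes were called higher, so Mb moved with most genes.

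These shifts were shared with most other genes. Under mitochondrial mRNA scaling the median of all genes tested was 3.81, 4.95 and 4.93 (log2) in the comparisons of IP_RNase, IP_RNase_ProK and mitoplast_RNase with crude_RNase, and under library size scaling it was 1.03, 1.09 and 1.08. Measured from the median gene, Mb was at -1.53, -1.66 and -1.55 under mitochondrial mRNA scaling and at -1.56, -1.68 and -1.57 under library size scaling. The values from the median were -1.57, -1.69 and -1.57 with TMM. Of the calls between IP_RNase and crude_RNase, 19.9% were higher with TMM, 99.3% by library size, 99.9% on mitochondrial mRNAs and 1.31% on olfactory receptor genes.

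**Figure D2:**
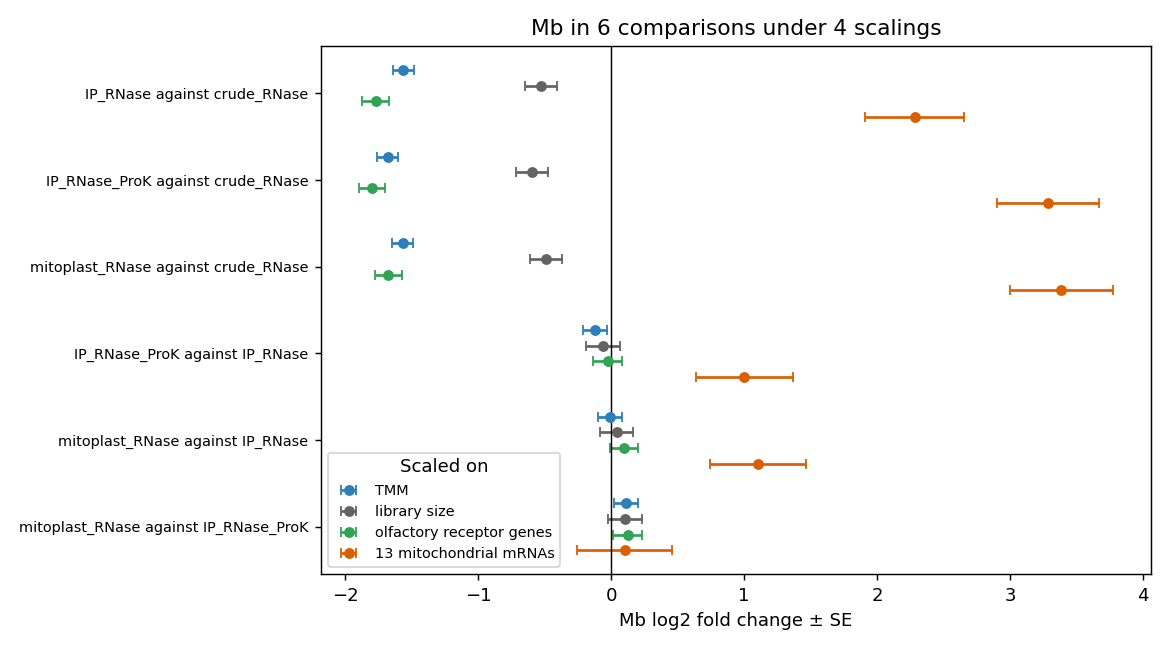
Mb log2 fold change ± SE in 6 comparisons, with libraries scaled by TMM, by library size, on olfactory receptor genes or on the 13 mitochondrial mRNAs. Against crude_RNase the first 3 scalings place Mb below 0, from -1.80 to -0.49, and mitochondrial mRNA scaling places it at 2.28 to 3.39.

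A ratio of 2 features within a library needs no scaling. Mb counts per 1000 olfactory receptor counts were 4.16, 4.22 and 4.85 in mitoplast_RNase, 4.15, 4.13 and 3.85 in IP_RNase_ProK, 3.85, 4.33 and 4.20 in IP_RNase, and 14.3, 14.0 and 13.9 in crude_RNase. The captured libraries were about 3-fold below the crude ones in this ratio, and the crude libraries were alike in it. The mean log2 ratio was lower by 1.77 in IP_RNase than in crude_RNase, and the 6 libraries did not overlap (two-sided exact permutation p = 0.1, the smallest that 3 against 3 allows; adjusted p = 0.167 over 30 ratio tests).

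Mb was also set beside 3 abundant muscle messages, which were chosen with their changes in these data known. Ckm, muscle creatine kinase, had 114, 109 and 108 counts in mitoplast_RNase, 110, 116 and 102 in IP_RNase_ProK, 87, 100 and 95 in IP_RNase, and 1067, 1017 and 866 in crude_RNase. Every captured library was far below every crude one. In raw counts mitoplast_RNase and IP_RNase_ProK overlapped, and the IP_RNase libraries were below both. In TMM-scaled CPM the captured groups were alike, with Ckm means of 23.0 in mitoplast_RNase, 22.4 in IP_RNase_ProK and 22.3 in IP_RNase. The crude_RNase mean was 251. The log2 ratio of Mb to Ckm averaged 1.32 ± 0.136 (SD) in the 3 IP_RNase libraries and -0.61 ± 0.0465 in the 3 crude ones (exact permutation p = 0.1, the smallest allowed). The log2 ratio of Mb to Acta1, skeletal actin, averaged 1.08 ± 0.446 in IP_RNase, against -3.41 ± 0.0797 in crude_RNase (exact permutation p = 0.1). The log2 ratio of Mb to Myh4, the fastest myosin heavy chain, averaged -1.91 ± 0.214 in IP_RNase, against -3.22 ± 0.135 in crude_RNase (exact permutation p = 0.1). In each ratio the 3 IP_RNase libraries were above the 3 crude ones, and the adjusted p over the 30 ratio tests was 0.167. Between the captured groups none of these 3 ratios reached an exact p below 0.3. Whether counts of the kind seen in olfactory receptor genes limit these ratios was not tested.

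The mRNAs of most other soluble proteins of the muscle cytosol were lower after capture with TMM scaling. Of all genes tested, 5.09% were called lower in IP_RNase than in crude_RNase. Of 20 entries tested, 18 were lower in that comparison and 2 missed the threshold. This list and those below were chosen with earlier results of these data known, so their counts are descriptive. Their median log2 fold change was -1.28, against 0.01 over all genes tested, and it turned to 2.55 under mitochondrial mRNA scaling. Ckm was at -3.49 ± 0.0958 (SE), Pygm, the phosphorylase that breaks down glycogen, at -2.71 ± 0.0835, and the glycolytic enzymes Pgam2 and Tpi1 at -3.28 ± 0.109 and -2.71 ± 0.0979. Mb, at -1.56, lay within the range of this list. The counts against crude_RNase were also 18 of 20 for IP_RNase_ProK and 18 of 20 for mitoplast_RNase, and fell to 10, 10 and 9 under library size scaling. Aldoa has 2 entries in the table, and its reads may be split between them.

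Most other globins did not pass the test. Of all genes tested, 5.09% were called lower in IP_RNase than in crude_RNase. Of 10 globin entries tested besides Mb, 2 were lower in that comparison and 8 missed the threshold. Hbe1, Hba-a3, Hbg1, Hbq1b, Hbe2, Hbz and Hbb-b1 had low levels throughout. Their means ran from 6.55 to 10.9 CPM in IP_RNase and from 5.92 to 10.1 CPM in crude_RNase. Whether such low counts leave room for a fall was not tested. The list median of 0.09 was -0.12 when scaled on olfactory receptor genes and 3.92 on mitochondrial mRNAs. Cygb, cytoglobin of fibroblasts and other cells, averaged 23.8 ± 3.09 CPM in IP_RNase, against 36.9 ± 2.26 CPM in crude_RNase (log2 fold change -0.64 ± 0.121 SE, edgeR adjusted p = 0.000118). Hba-a2, an alpha chain of haemoglobin, averaged 39.3 ± 3.06 CPM in IP_RNase, against 59.0 ± 6.98 CPM in crude_RNase (log2 fold change -0.58 ± 0.0997, edgeR adjusted p = 1.68e-05). Hbe1 and Ngb, an embryonic beta-type chain and the globin of neurons, were at 0.51 ± 0.235 and -0.19 ± 0.137 and did not pass. Cygb was at -0.46 in IP_RNase_ProK (edgeR adjusted p = 0.00564) and at -0.31 in mitoplast_RNase (adjusted p = 0.111) against crude_RNase, and Hba-a2 fell by 0.61 and 0.56 in those comparisons. Under library size scaling no globin besides Mb was called lower by edgeR in any of the 3 comparisons. Globin genes have near-identical copies, and the counting of shared reads is not stated.

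Fibre-type messages were also lower with TMM scaling. All 8 entries of the slow and oxidative list, a set of slow and fast oxidative fibre messages, were lower in IP_RNase than in crude_RNase, and their median of -0.87 turned to 0.17 by library size and 2.98 on mitochondrial mRNAs. Myh2, the myosin of fast oxidative fibres, was at -1.89 ± 0.0895 (SE), and the slow myosin Myh7 at -0.90 ± 0.0936, followed by the slow light chain Myl3 at -0.83 ± 0.106 and the tropomyosin Tpm3 at -0.95 ± 0.0975. All 7 fast-fibre contractile entries were lower, against 5.09% of all genes tested, and the list median of -3.16 turned to 0.66 on mitochondrial mRNAs. The light chain Mylpf stood at -4.67 ± 0.109 and Myl1 at -4.22 ± 0.110, troponin I Tnni2 at -3.69 ± 0.0873 and the Z-disc protein Actn3 at -2.68 ± 0.0848. Mb, at -1.56, was below the slow and oxidative median and above the fast one. Nearly all olfactory receptor genes also had counts, and whether counts of that kind limit each gene's fold change was not tested. The list counts against crude_RNase were again 8 of 8 and 7 of 7 for both IP_RNase_ProK and mitoplast_RNase. By library size only 1 slow and oxidative entry was lower in each of the 3 comparisons.

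**Figure D3:**
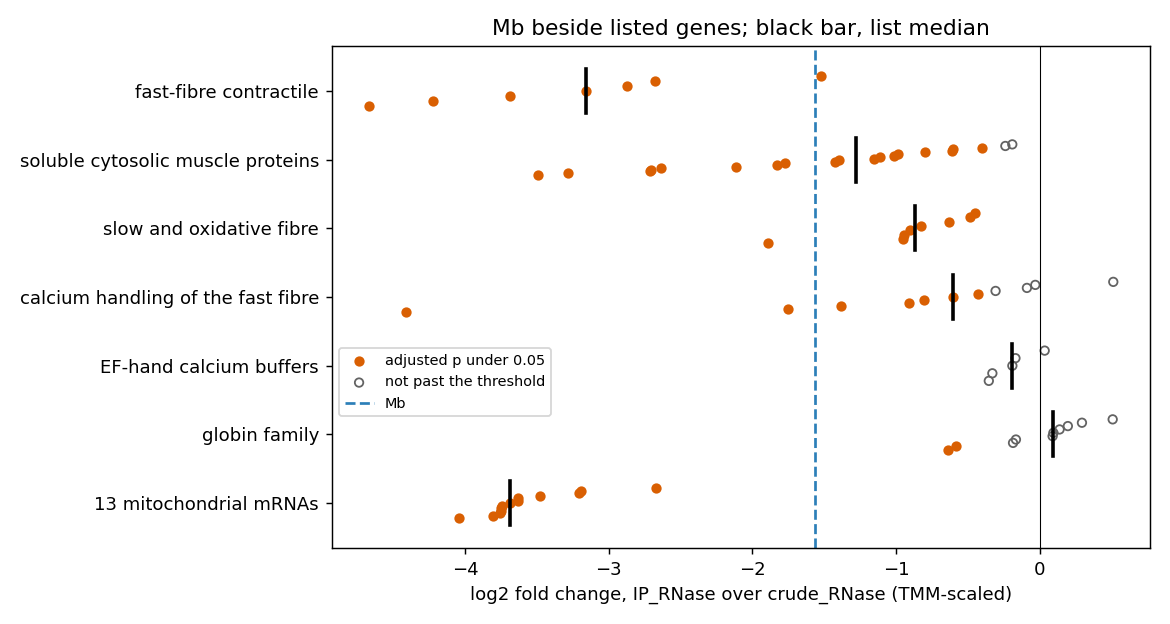
log2 fold change of each listed gene between IP_RNase and crude_RNase (TMM-scaled), with filled points past an adjusted p of 0.05, a black bar at each list median and a dashed line at Mb. Mb, at -1.56, lies beside the soluble cytosolic list (median -1.28), between the fast contractile list (-3.16) and the globins (0.09). On mitochondrial mRNA scaling Mb is at 2.28 and these lists at 2.55, 0.66 and 3.92. Most globin entries had low counts in both groups.

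Calcium-handling genes, the setting in which parvalbumin works, were split. Of 11 entries tested 7 were lower in IP_RNase than in crude_RNase and 4 missed the threshold, against 5.09% of all genes called lower. The list median of -0.61 turned to 0.43 by library size and to 3.26 on mitochondrial mRNAs. Tnnc2, the calcium sensor of the fast thin filament, was at -4.41 ± 0.104 (SE). Casq1, which stores calcium in the sarcoplasmic reticulum, was at -1.75 ± 0.0862, close to Mb. The mitochondrial calcium uniporter Mcu, at -0.03 ± 0.113, and the calcium-binding S100a1, at -0.09 ± 0.159, did not pass. The counts were 7 of 11 for IP_RNase_ProK and 8 of 11 for mitoplast_RNase against crude_RNase, the second being 5 without crude_RNase 2. The 5 EF-hand buffers, cytosolic calcium binders of the kind parvalbumin belongs to, gave 0 calls by edgeR and 0 by DESeq2 between IP_RNase and crude_RNase, from -0.35 for Calb1 to 0.04 for Calb2, with 1 call when scaled on olfactory receptor genes. Ocm, oncomodulin, a parvalbumin of the beta type, was at -0.19 ± 0.188 (SE), S100b at -0.17 ± 0.153 and S100g at -0.33 ± 0.322. Counts per library were 42 to 79 for Ocm, 60 to 114 for S100b and 9 to 23 for S100g. Whether such counts leave room for a fall was not tested, and parvalbumin itself was not analysed here. At an unadjusted edgeR p under 0.05 the count was 1 of 5, Calb1, against 17.9% of all genes tested.

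Among captured groups none of these 6 lists had a called member, by edgeR or by DESeq2. At an unadjusted edgeR p under 0.05 the soluble list had 2 of 20 entries between IP_RNase_ProK and IP_RNase, 3 between mitoplast_RNase and IP_RNase, and 2 between mitoplast_RNase and IP_RNase_ProK. Each other list, of 5 to 11 entries, had 0 to 3 such members in each of these comparisons. The highest count was 3 of 10 globins, between mitoplast_RNase and IP_RNase. Between mitoplast_RNase and IP_RNase_ProK the fast-fibre contractile list had 2 of 7 entries, and each of the remaining lists had 0. Over all genes tested the share was 8.86% between IP_RNase_ProK and IP_RNase, 8.93% between mitoplast_RNase and IP_RNase, and 2.8% between mitoplast_RNase and IP_RNase_ProK.

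The genes whose pattern over the 12 libraries was most like that of Mb were sought by the root mean square distance between log2 CPM values centred on each gene's mean, among 16153 named genes with a mean of at least 50 counts. Ahnak, a very large scaffold protein of the membrane skeleton, was the nearest, at 0.0666, against a median of 0.704 over these genes. Fhl1, a LIM-domain protein of striated muscle, followed at 0.0968, Sptbn1, a spectrin, at 0.0997, Glul, glutamine synthetase, at 0.103 and Pkm, pyruvate kinase, at 0.106. Ahnak averaged 127 CPM in mitoplast_RNase, 125 in IP_RNase_ProK, 125 in IP_RNase and 369 in crude_RNase, with a log2 fold change of -1.56 between IP_RNase and crude_RNase. The 5 genes had fold changes of -1.75 to -1.43 in that comparison. They share the libraries and the scaling with Mb, and each of the 5 was higher in all 3 crude libraries than in any captured one. These traits follow from the choice of the genes by their likeness to Mb.

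**Figure D4:**
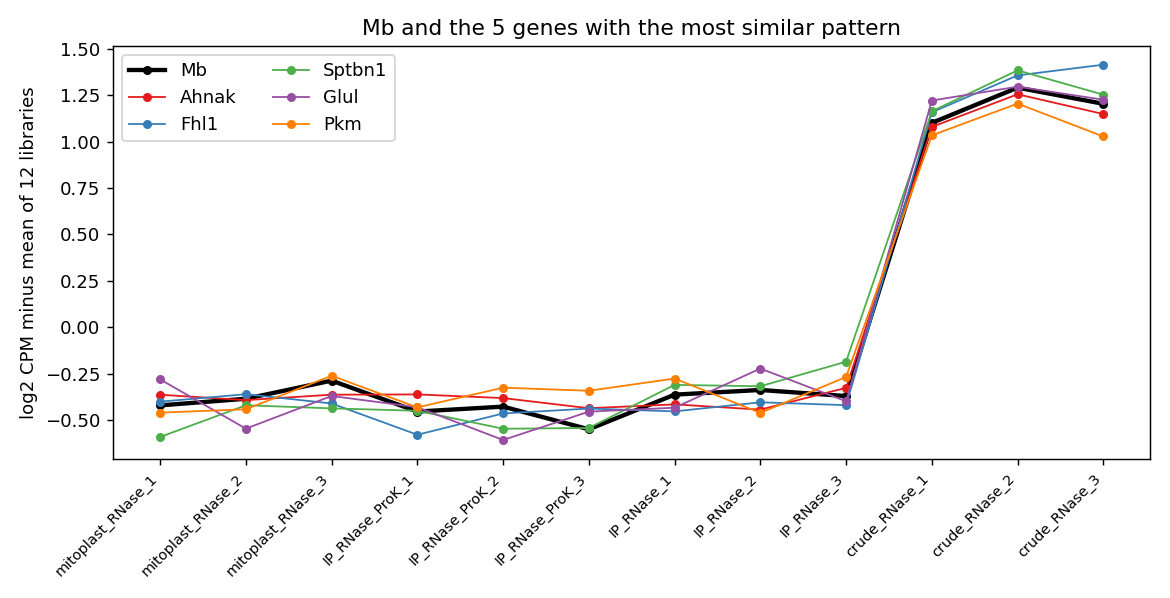
log2 CPM minus the mean of the 12 libraries for Mb and its 5 nearest genes, Ahnak, Fhl1, Sptbn1, Glul and Pkm, by library. All 6 genes are higher in each of the 3 crude libraries than in any captured one, and Sptbn1 is also higher in the 3 IP_RNase libraries than in the other 6 captured ones. The 5 genes were chosen for their likeness to Mb in these libraries.

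Markers of muscle fibres and of other cells moved with some of these differences. All 8 fibre markers were lower in IP_RNase than in crude_RNase, and their summed level was 1729 to 3091 CPM in mitoplast_RNase, 1512 to 1726 in IP_RNase_ProK, 1587 to 2558 in IP_RNase and 6654 to 19713 in crude_RNase, the highest being the library with the most Ttn. Without that library, crude_RNase 2, the Mb log2 fold change was -1.52 for IP_RNase against crude_RNase. Of 6 fibroblast and matrix markers, 5 were lower in IP_RNase than in crude_RNase, such as Col3a1, a fibrillar collagen, at -3.26, and their summed level was 374 to 378 CPM in mitoplast_RNase, 353 to 363 in IP_RNase_ProK, 368 to 393 in IP_RNase and 1559.5 to 1705 in crude_RNase. Of 6 cardiac markers, where Mb is also expressed, 1 was lower by edgeR and 0 by DESeq2 (Tnnt2, at -0.32), and the summed level was 434 to 456 CPM in mitoplast_RNase, 446 to 455 in IP_RNase_ProK, 442 to 469.7 in IP_RNase and 433 to 453 in crude_RNase. Of 4 erythroid markers, 1 was lower (Hba-a2), with a summed level of 133 to 151 CPM in mitoplast_RNase, 143 to 149 in IP_RNase_ProK, 134 to 142 in IP_RNase and 153 to 175 in crude_RNase. Among the other lists 2 of 5 macrophage, 1 of 5 adipocyte, 0 of 5 endothelial, 0 of 5 smooth muscle, 0 of 6 Schwann cell and 0 of 4 satellite cell markers were lower by edgeR, and DESeq2 called none in these last 4 lists, with 0, 2, 2 and 1 at an unadjusted edgeR p under 0.05, which 17.9% of all genes tested reached. Of all genes tested, 5.09% were called lower by edgeR in IP_RNase than in crude_RNase. None of the markers was at 0 in any library. Their part in the Mb difference was not tested, and in such bulk samples fewer organelles carrying cytosol cannot be told apart from less RNA on each.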

How the data were processed

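RNA of 12 mitochondrial preparations was sequenced after ribosomal RNA depletion. The authors deposited 1 table of whole-number read counts per gene, not normalised, made with FastQC 0.74, cutadapt 4.6, STAR 2.7.11a and HTSeq on mRatBN7.2, per the submitters' processing notes. The annotation release, the strand setting and the handling of multiply mapping reads are not given there. Groups followed the titles. For crude mitochondria the tissue label names immunoprecipitation, while title and design text name crude mitochondria, which were followed.

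All 26483 genes kept by filterByExpr (minimum count 10) were fitted in 1 model of 4 groups with edgeR 4.0.16 (R 4.3.3), using TMM scaling and quasi-likelihood F tests, with Benjamini-Hochberg adjustment per comparison and a threshold of 0.05. The SE is the absolute log2 fold change divided by the square root of F, and uses dispersions moderated over all genes. Ratios within libraries were compared by exact permutation with SciPy 1.17.1. Depth was 3325430 to 7123045 counts, and every pair of replicates differed by more than sampling noise (chi-square per degree of freedom of 1.25 or more). The procedure was tested on simulated data.

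Mb and the lists were chosen with earlier results of these data known. Named genes were Mb, in each list the 4 or fewer genes of lowest p in the comparison of IP_RNase with crude_RNase, and the 5 genes nearest to Mb in pattern. Further genes named in the text (S100a1, Mcu, Calb2, Aldoa, Col3a1, Tnnt2, Acta1, Myh4 and Ttn) were chosen after their values were seen. Not every gene that the naming rule gives is reported here. Some listed genes (Hba-a1, Hbb, Atp2a1, Calm3, Ak1, Pgk1, Myh1 and Cd36) were not analysed here. Alternatives were DESeq2 1.42.0, other scalings, no filter, a replicate block, fits on 6 libraries and fits without each library.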

Additional observations from a re-analysis of the deposited data

How the results depend on the processing

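Of 78 alternative values of the Mb fold change over the 6 comparisons, 68 kept direction and side of the threshold. Scaling on mitochondrial mRNAs reversed it against crude_RNase, to 2.28 for IP_RNase, 3.29 for IP_RNase_ProK and 3.39 for mitoplast_RNase. Against IP_RNase that scale reversed it to 1.00 for IP_RNase_ProK and 1.10 for mitoplast_RNase. With TMM the median log2 fold change of the mitochondrial mRNAs against crude_RNase was -3.69, -4.89 and -4.93, in the same order. Against IP_RNase that median was -1.21 for IP_RNase_ProK and -1.24 for mitoplast_RNase. Each median was lower than the Mb value with TMM in the same comparison. The difference of mitoplast_RNase from IP_RNase, -0.01, also turned to 0.0401 by library size and 0.10 on olfactory receptor genes, and ranged from -0.0450 to 0.0218 without single libraries, with no call. Library size scaling moved the values against crude_RNase to -0.53, -0.59 and -0.49, still past the threshold. Without single libraries the Mb values were -1.61 to -1.52 for IP_RNase, -1.73 to -1.63 for IP_RNase_ProK and -1.62 to -1.52 for mitoplast_RNase against crude_RNase.

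The number of genes called against crude_RNase was 1684 for IP_RNase, and became 25283 by library size, 26449 on mitochondrial mRNAs and 4444 on olfactory receptor genes. For IP_RNase_ProK it was 1719, and became 1135 with DESeq2, 25420 by library size and 26470 on mitochondrial mRNAs, and for mitoplast_RNase it was 1467, and became 25415 and 26465 on those 2 scales. Between IP_RNase_ProK and IP_RNase the 37 calls became 23 by library size, 24890 on mitochondrial mRNAs, 143 in a fit of only the 6 libraries and 24 to 35 without single libraries, lowest without IP_RNase_ProK 1 or IP_RNase 1. Between mitoplast_RNase and IP_RNase the 41 calls became 24728 on mitochondrial mRNAs, 115 in the 6-library fit and 25 to 42 without single libraries, with 25 without mitoplast_RNase 3 and 27 without IP_RNase 1. Between mitoplast_RNase and IP_RNase_ProK the 0 calls became 1 on mitochondrial mRNAs, 11 in the 6-library fit and 0 to 1 without single libraries. Apart from the scales, the cause was not tested. Calls lower in the lists moved by over 1.5 times in 27 of 36 values under library size or mitochondrial mRNA scaling and in 6 of 198 others, among them the globins for IP_RNase_ProK, 1 without IP_RNase_ProK 2 against 2.

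Equal replicate numbers did not pair the libraries: 0 of 18 same-number pairs had deviations correlated above 0.1, and 6 of 12 libraries correlated best with their own number. With the replicate block the Mb fold change against crude_RNase was -1.56 for IP_RNase, -1.68 for IP_RNase_ProK and -1.57 for mitoplast_RNase, and no Mb call changed. Alternatives for Pvalb, and its ratio to Mb, were not run, since Pvalb was not analysed here.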
